A study of Mus musculus with 12 samples.

Results

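Tumour necrosis factor (TNF) and the interleukins are secreted proteins with which leukocytes set the strength of inflammation, and 10 genes of this group were followed in sorted mouse neutrophils: the ligands Tnf, Tnfsf14, Il12a, Il6, Il10 and Csf1, the TNF receptors Tnfrsf1a and Tnfrsf1b, and the TNF-induced genes Tnfaip3 and Tnfaip2. They were chosen by gene symbol, with earlier results of these data known. Matched through the Ensembl identifier, they are 10 of the 48709 genes in the count table. Of these, 9 had more than 1 CPM (counts scaled to the sum over genes) in at least 3 libraries and were tested among 12488 genes. Il6 did not pass and is described by its counts alone.

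All mice were male C57BL/6N, 8 to 10 weeks old. Control splenic neutrophils came from the spleens of untreated mice (n = 3), and liver neutrophils were taken 24 hours (n = 4) or 72 hours (n = 5) after 1 intraperitoneal dose of carbon tetrachloride (CCl4), a hepatotoxin, at 1 mL/kg in corn oil. Every library was made from cells enriched with anti-Ly6G beads and sorted as CD45+ CD11b+ Ly6C-intermediate cells with high Ly6G. The design asked how neutrophils of the injured liver at the early, necrotic stage and at the later repair stage differ from resting neutrophils and from each other. Livers were minced, digested with enzymes and passed over a Percoll gradient, whereas spleen cells were released by mechanical dissociation. No resting liver and no spleen of a treated mouse is among the libraries. Tissue of origin, way of isolation and CCl4 therefore cannot be told apart in the comparisons with the spleen. The sources do not say whether a library holds 1 animal or several, so p-values measure the spread between these libraries. Spleen replicates 1 and 2 were the closest pair within any group, with a chi-square of 2.48 per degree of freedom between their counts over genes. The next lowest was 6.82, for 72-hour replicates 4 and 5, and spleen replicate 3 gave 38.1 and 42.0 against the other spleen libraries. Whether spleen replicates 1 and 2 are independent was not tested. In bulk samples, fewer cells of a type and less RNA per cell cannot be told apart either.

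TNF binds TNFR1, carried by most cells, and TNFR2, carried mainly by leukocytes and endothelial cells, and TNFR1 signals through NF-κB and MAP kinases to inflammatory genes or, when that arm is blocked, to cell death. Among the genes that NF-κB switches on is Tnfaip3, whose product A20 edits ubiquitin chains in the receptor complex and turns the signal down. In the injured liver TNF is known both for its part in hepatocyte death and for priming hepatocytes to divide, and Kupffer cells, recruited monocytes and neutrophils are among its sources.

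Few reads were assigned to genes, which limits what can be seen for genes of this kind. The authors deposited whole-number counts per gene, and these summed to 1267089 to 3017403 per library, so that 3 counts correspond to between 0.994 and 2.37 CPM. In each library, 96.8% to 97.3% of uniquely aligned reads lay on no gene. The libraries came from a strand-specific kit and the strand option of the counter is not given in the sources used here. Whether a gene's counts are reads of its own strand or of the opposite strand therefore cannot be told. Levels, rises and falls below are those of the counts assigned to each gene, and their strand was not tested. Of the 10 genes, Tnfaip2 alone shares exon bases with an annotated gene on the opposite strand (314 bases, with Gm40578). Unaligned reads made up 1.91% and 1.98% in 72-hour replicates 2 and 3 and 49.6% to 50.7% in the other 10 libraries. On the second principal component of all tested genes, 72-hour replicates 4 and 5 lay at 2.99 to 4.53 and the other 72-hour libraries at -80.4 to -53.4. The same component held 24-hour replicates 1 and 2 at 45.3 and 47.9 and replicates 3 and 4 at 2.43 and -4.99, and spleen replicate 3 at 17.8 beside 42.8 and 40.96 for the other spleen libraries. Ambiguous reads were 0.227% of the uniquely aligned reads in 24-hour replicate 4 and at most 0.0368% elsewhere.

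The labelled cell type was checked against marker genes. All 10 neutrophil markers had more than 3 counts in some library. Ly6g itself, the antigen of the sort, had 29 to 104 counts in the spleen libraries, 3 to 42 at 24 hours and 3 to 18 at 72 hours. Macrophages, monocytes and dendritic cells can also make the cytokines described here. Of 10 macrophage markers 3 exceeded 3 counts, Clec4f and C1qa stood at 0 in every library, and their summed level was 17.4 to 43.7 normalized CPM in the spleen, 13.8 to 31.8 at 24 hours and 11.8 to 24.9 at 72 hours. The 6 monocyte markers summed to 109 to 137, 133 to 177 and 114 to 180 normalized CPM, with 3 of them over 3 counts and none at 0 throughout. Csf1r alone had means of 92.8, 141 and 137 normalized CPM, so these sums rest mainly on 1 gene. In 873 of its exon bases a gene of the opposite strand also has an exon. The 5 dendritic cell markers summed to 37.1 to 105, 10.7 to 50.3 and 41.5 to 80.6 normalized CPM, again with 3 over 3 counts. The highest liver sum was below the highest spleen sum for macrophage and dendritic cell markers and above it for monocyte markers, and the part of such cells in the results was not tested.

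The promoters of the genes that changed are shown first. Windows of 250 bases ending at the base before the transcription start were taken from RefSeq (GRCm38.p6), where 9 of the 10 genes had an entry. They were searched on both strands for a loose form of the κB site bound by NF-κB (GGGNNNNNCC) and for the AP-1 site (TGANTCA), which capitals mark. These motifs are short, and among 32851 promoters of the same length 45.8% held the κB form and 6.75% the AP-1 form. The Tnf window (chr17:35202008-35202257, minus strand) held 1 κB match, whose letters fit the loose form on both strands, 194 to 185 bases before the start. The Il12a window (chr3:68690394-68690643, plus strand) held neither motif. The Csf1 window (chr3:107760470-107760719, minus strand) held κB matches at 4 positions, of which 2 overlap. For Tnfaip3 the 137 bases nearest the start are shown (chr10:19015411-19015547, minus strand), because the rest of its window lies in annotated exons. They held κB matches at 4 positions, of which 2 overlap, and an AP-1 match 136 to 130 bases before the start. A match describes letters only, and neither a match nor its absence says whether a factor binds there. The Tnfaip2 window, with κB matches at 5 positions, lies mostly in annotated exons and is not shown. Windows of genes not called held such matches too, at 4 positions for Tnfsf14, 3 for Il6, 3 for Tnfrsf1b and 1 for Tnfrsf1a. Those of Tnfsf14 and Il6 also held 1 AP-1 match each.
Tnf: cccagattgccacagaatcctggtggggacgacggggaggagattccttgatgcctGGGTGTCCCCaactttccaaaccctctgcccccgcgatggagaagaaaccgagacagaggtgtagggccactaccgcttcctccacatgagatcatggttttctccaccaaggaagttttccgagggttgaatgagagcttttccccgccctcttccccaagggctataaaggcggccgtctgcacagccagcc
Il12a: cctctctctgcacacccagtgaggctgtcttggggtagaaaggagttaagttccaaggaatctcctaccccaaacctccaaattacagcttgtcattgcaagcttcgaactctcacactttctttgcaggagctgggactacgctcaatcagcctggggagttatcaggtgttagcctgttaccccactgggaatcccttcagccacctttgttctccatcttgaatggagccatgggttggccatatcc
Csf1: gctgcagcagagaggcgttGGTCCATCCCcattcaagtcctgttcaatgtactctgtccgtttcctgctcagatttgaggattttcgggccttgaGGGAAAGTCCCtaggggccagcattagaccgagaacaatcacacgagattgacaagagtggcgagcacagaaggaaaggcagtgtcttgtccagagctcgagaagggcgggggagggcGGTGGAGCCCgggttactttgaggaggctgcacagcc
Tnfaip3: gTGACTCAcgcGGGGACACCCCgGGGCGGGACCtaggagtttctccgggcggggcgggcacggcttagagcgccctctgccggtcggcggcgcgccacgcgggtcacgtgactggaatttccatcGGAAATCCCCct

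The 12 libraries were scaled by TMM factors (trimmed mean of M values) and entered 1 model, from which each pair of groups was tested by quasi-likelihood in edgeR, with p-values adjusted over all 12488 genes. A gene is called, and said to have risen or fallen, where the adjusted p is below 0.05 and the log2 fold change is 0.5 or more in either direction. At 24 hours 3 of the 9 tested genes were called against control splenic neutrophils, all higher (Tnf, Il12a and Tnfaip3), where 9.75% of all tested genes were called, 5.35% higher and 4.4% lower. At 72 hours 4 of 9 were called, all higher (Il12a, Tnfaip3, Tnfaip2 and Csf1), where 5.33% of all genes were called, 2.63% higher and 2.71% lower. Between the liver groups Il12a alone was called, lower at 72 hours than at 24 hours, where 4.49% of all genes were called, 1.65% higher and 2.84% lower. The 72-hour count was 1 without spleen replicate 1 or 2 and 2 without 72-hour replicate 2. For the 9 genes the median log2 fold change was 0.99 at 24 hours, 0.99 at 72 hours and 0.30 between the liver groups, beside -0.23, -0.02 and 0.18 over all tested genes. The comparisons with the spleen share the 3 spleen libraries. Because the genes were chosen with earlier results of these data known, their shares beside those of all genes are a description and no test.

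**Figure D1:**
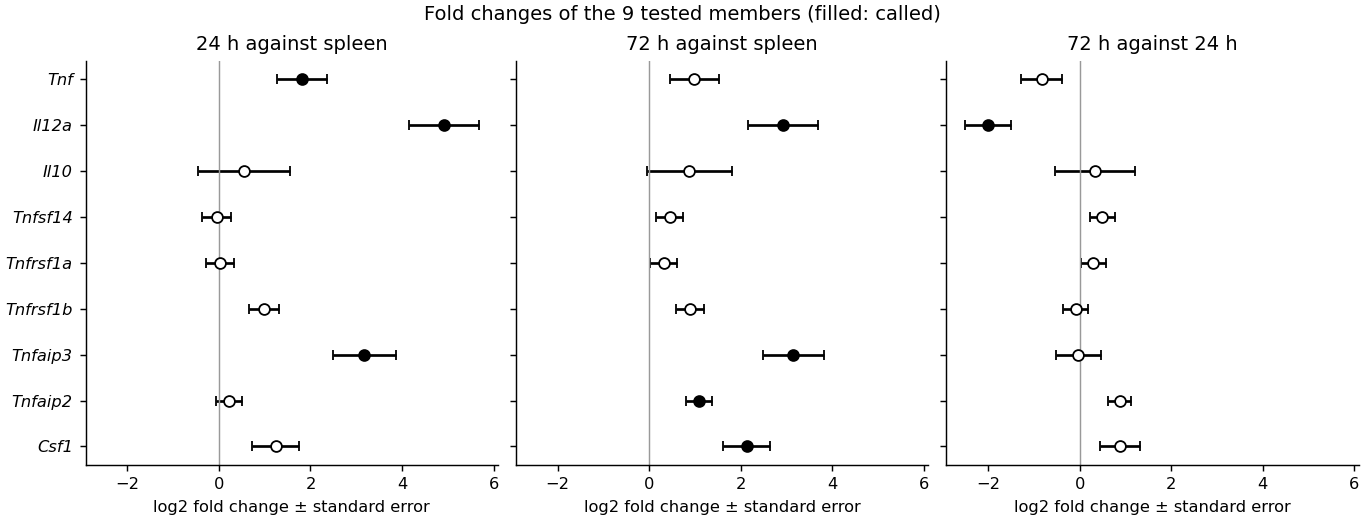
Log2 fold change (x axis) with its standard error for the 9 tested genes (y axis) in the 3 comparisons, filled where the gene was called. Il12a lies farthest to the right at 24 hours (4.92) and alone to the left as a called gene between 72 and 24 hours (-2.00), and Tnfaip3 lies near 3 in both comparisons with the spleen.

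Among the ligands, Tnf (ENSMUSG00000024401.14, chromosome 17 of GRCm38 from 35199381 to 35202007, minus strand) rose in 24-hour neutrophils. Its normalized CPM was 8.81, 6.52 and 2.25 in spleen replicates 1 to 3, 17.7, 36.6, 4.24 and 22.6 in 24-hour replicates 1 to 4, and 15.7, 9.67, 13.9, 8.34 and 9.08 in 72-hour replicates 1 to 5. Of the 24-hour libraries 3 lay above every spleen library, while replicate 3, with 6 counts of Tnf, lay below 2 of them, and all groups overlapped. The log2 fold change was 1.82 at 24 hours (SE 0.56, adjusted p = 0.0411) and 0.99 at 72 hours (SE 0.53, adjusted p = 0.370), and 72-hour neutrophils did not pass the test against 24-hour neutrophils (-0.83, SE 0.46, adjusted p = 0.306). The 24-hour call was close to the threshold. It was lost without spleen replicate 1 (adjusted p = 0.0563), 2 (0.103) or 3 (0.122), without 24-hour replicate 1 (0.0573), 2 (0.147) or 4 (0.0804), and without 72-hour replicate 1 (0.0513). It was also lost under limma-voom (0.0867) and in a fit of these 2 groups alone (0.0725). Leaving out 24-hour replicate 4 and 72-hour replicates 2 and 3, an alternative added after the data were seen, gave 0.0883.

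Il12a (ENSMUSG00000027776.12, chromosome 3 from 68690644 to 68698547, plus strand) encodes p35, a subunit that IL-12 shares with IL-35. It had the largest fold change of the 9 genes in both comparisons that involve the 24-hour libraries. The spleen libraries held 1, 4 and 0 counts (0.464, 1.45 and 0 normalized CPM), which is at or near the limit of detection. The 24-hour libraries held 35, 37, 17 and 37 counts (22.1, 22.2, 12.02 and 27.0 normalized CPM), and the 72-hour libraries held 8, 33, 15, 3 and 3 counts (4.34, 11.4, 4.64, 2.08 and 1.95 normalized CPM). No library of any group overlapped another group, with every 24-hour library on top and every spleen library at the bottom.

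The log2 fold change of Il12a was 4.92 at 24 hours (SE 0.76, adjusted p = 2.76e-04), 2.92 at 72 hours (SE 0.77, adjusted p = 0.0251) and -2.00 between 72 and 24 hours (SE 0.50, adjusted p = 0.0257). With so few spleen counts the size of the first 2 values is loose. The pooled counts, 126 at 24 hours against 5 in the spleen, gave a ratio of 33.5 with an exact 95% interval of 13.99 to 105 that covers counting error only. The 62 counts at 72 hours gave 9.09 times the spleen (3.69 to 29.0) and 0.271 times the 24-hour level (0.197 to 0.370). Without spleen replicate 2, which held 4 of the 5 spleen counts, the log2 fold changes were 6.35 and 4.35, and without spleen replicate 3 they were 4.30 and 2.30. The 24-hour call stood with any library left out. At 72 hours Il12a was not called without spleen replicate 1 (adjusted p = 0.112) or 3 (0.0860) or 72-hour replicate 2 (0.0962), or in a fit of these 2 groups alone (0.0801). The fall between 24 and 72 hours was no longer called without 24-hour replicate 1 (0.0742), 2 (0.0699) or 4 (0.0724) or without 72-hour replicate 1 (0.0609) or 3 (0.0639), at log2 fold changes of -1.97, -1.97, -1.86, -1.95 and -1.96. It was also not called without 72-hour replicates 4 and 5 together (-1.60, adjusted p = 0.0622), nor without 24-hour replicate 4 and 72-hour replicates 2 and 3 (-2.70, adjusted p = 0.0519), both alternatives added after the data were seen. In an exact permutation of the Kruskal-Wallis statistic over the 3 groups, Il12a alone of the 9 genes passed (exact p = 2.16e-04, adjusted p = 0.0273), where 1.42% of all tested genes did.

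Csf1 (ENSMUSG00000014599.10, chromosome 3 from 107741048 to 107760469, minus strand), the growth factor on which monocytes and macrophages depend, rose at 72 hours. The spleen libraries stood at 26.4, 14.5 and 33.4 normalized CPM. The 24-hour libraries fell into a low pair, replicates 1 and 2 at 30.9 and 30.6, and a high pair, replicates 3 and 4 at 89.8 and 84.6, the same pairs that the second principal component separated. The 72-hour libraries did likewise, with replicates 1, 2 and 3 at 161, 138 and 162 and replicates 4 and 5 at 29.9 and 48.0. Replicate 4 at 72 hours lay inside the range of the spleen.

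The log2 fold change of Csf1 was 2.13 at 72 hours (SE 0.51, adjusted p = 0.0125), 1.24 at 24 hours (SE 0.51, adjusted p = 0.126) and 0.88 between 72 and 24 hours (SE 0.43, adjusted p = 0.247). It was not called at 72 hours without spleen replicate 1 (adjusted p = 0.0627) or 2 (0.110). Without the filter on low counts, Csf1 was also called at 24 hours (1.22, adjusted p = 0.00360) and between the liver groups (0.89, adjusted p = 0.0335). The same held with 72-hour replicates 4 and 5 left out, an alternative added after the data were seen, at 24 hours (1.26, adjusted p = 0.0280) and between the liver groups (1.38, adjusted p = 0.0176).

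Tnfsf14 (ENSMUSG00000005824.6, chromosome 17 from 57189492 to 57194177, minus strand), which encodes LIGHT, a ligand of HVEM and of the lymphotoxin β receptor, was not called. It ranged from 20.9 to 24.4 normalized CPM in the spleen, from 16.3 to 27.6 at 24 hours and from 21.1 to 42.4 at 72 hours. Its log2 fold changes were -0.05, 0.44 and 0.49 in the 3 comparisons, with adjusted p from 0.321 to 0.945.

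Il10 (ENSMUSG00000016529.5, chromosome 1 from 131019845 to 131024974, plus strand), the main anti-inflammatory cytokine of myeloid cells, lay close to the limit of detection. Its counts were 0, 3 and 10 in the spleen libraries, 0, 2, 4 and 7 at 24 hours and 1, 7, 12, 7 and 4 at 72 hours. The groups overlapped throughout and the log2 fold changes of 0.55, 0.87 and 0.33 had standard errors of 0.87 to 1.01, so a difference was not detectable at these counts. Il6 (ENSMUSG00000025746.11, chromosome 5 from 30013114 to 30019981, plus strand), the inducer of the hepatic acute-phase response, had 0 counts in all 12 libraries. A count of 0 allows up to 3 counts. A level of assigned counts below 0.994 CPM in the library with the most counts, and below 2.37 CPM in that with the fewest, would not have been seen.

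Of the receptors, Tnfrsf1a (ENSMUSG00000030341.17, chromosome 6 from 125349362 to 125362484, plus strand), which encodes TNFR1, was not called in any comparison. Spleen replicate 1 was its highest spleen library at 57.1 normalized CPM, beside 34.4 and 26.7 in replicates 2 and 3. The liver libraries ranged from 32.8 to 48.1 at 24 hours and from 35.4 to 65.3 at 72 hours. The log2 fold changes were 0.02 (SE 0.31), 0.32 (SE 0.29) and 0.30 (SE 0.27).

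Tnfrsf1b (ENSMUSG00000028599.10, chromosome 4 from 145213463 to 145246870, minus strand), which encodes TNFR2, lay just outside the threshold at 24 hours. Its normalized CPM was 24.6, 18.5 and 31.8 in the spleen, 51.1, 55.8, 46.0 and 45.2 at 24 hours and 42.8, 51.8, 71.5, 27.1 and 37.6 at 72 hours. Every 24-hour library lay above every spleen library, and so did every 72-hour library except replicate 4. The log2 fold change was 0.99 at 24 hours (SE 0.32, adjusted p = 0.0548), 0.90 at 72 hours (SE 0.31, adjusted p = 0.101) and -0.09 between the liver groups (SE 0.27, adjusted p = 0.889). It was called at 24 hours without spleen replicate 3 (adjusted p = 0.0344) and without 72-hour replicate 3 (0.0432) or 4 (0.0384), and at 72 hours without 72-hour replicate 4 (0.0382). With all libraries it was called at 24 hours with DESeq2 size factors (adjusted p = 0.0482), upper-quartile factors (0.0334), filterByExpr (0.0442), the DESeq2 Wald test (0.0229), a fit of the 2 groups alone (0.0447) and among genes without opposite-strand overlap (0.0308), but not without a filter (0.0605) or with limma-voom (0.0563).

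The balance of the receptors was also read within each library, where no scaling between libraries enters. The log2 ratio of Tnfrsf1b to Tnfrsf1a counts was -1.21, -0.89 and 0.25 in the spleen libraries, 0.58, 0.35, -0.06 and 0.46 at 24 hours, and 0.07, 0.05, 0.13, -0.38 and -0.46 at 72 hours. The mean was -0.61 ± 0.77 (SD, n = 3), 0.33 ± 0.28 (SD, n = 4) and -0.12 ± 0.28 (SD, n = 5). Spleen replicate 3 lay among the liver libraries and apart from the other 2 spleen libraries. The differences were 0.95 between 24 hours and the spleen (exact two-sided permutation p = 0.0571), 0.50 between 72 hours and the spleen (exact p = 0.196) and -0.45 between 72 and 24 hours (exact p = 0.0635), with values of 0.0952, 0.196 and 0.0952 after adjustment over the 3 exact tests. None passed, and the smallest p that the 35 assignments of the first comparison allow is 0.0286.

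**Figure D2:**
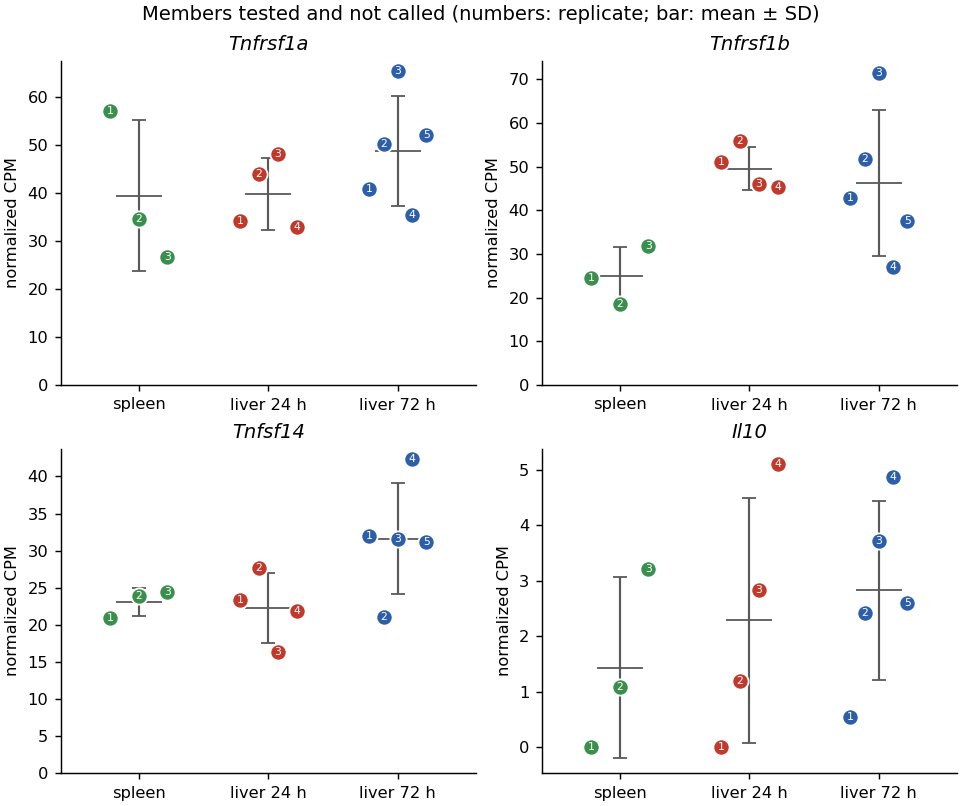
Normalized CPM (y axis) of the 4 tested genes that were not called, by group (x axis), with each library as a point carrying its replicate number and a bar for the mean ± SD. For Tnfrsf1b all 24-hour points lie above the spleen points, whereas the groups overlap for Tnfrsf1a, Tnfsf14 and Il10.

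Tnfaip3 (ENSMUSG00000019850.11, chromosome 10 from 19000910 to 19015657, minus strand), the A20 gene, rose in both liver groups. The spleen libraries stood at 2.78, 1.09 and 4.50 normalized CPM, from 3 to 14 counts. The 24-hour libraries stood at 35.9, 27.6, 25.5 and 14.6, all above the spleen. The 72-hour libraries were spread over a much wider range, at 15.7, 46.3, 47.4, 4.17 and 9.73. Replicates 2 and 3 were the highest of the 12 libraries, and replicate 4, with 6 counts, lay inside the range of the spleen.

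The log2 fold change of Tnfaip3 was 3.17 at 24 hours (SE 0.69, adjusted p = 0.00464), 3.14 at 72 hours (SE 0.67, adjusted p = 0.00482) and -0.03 between the liver groups (SE 0.50, adjusted p = 0.982). The 24-hour call stood with any 1 library left out, at adjusted p up to 0.0367. At 72 hours it was no longer called without spleen replicate 2 (adjusted p = 0.0506) or under limma-voom (0.0590). Between the liver groups the value turned to 0.48 (adjusted p = 0.512) without 72-hour replicates 4 and 5, an alternative added after the data were seen.

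Tnfaip2 (ENSMUSG00000021281.15, chromosome 12 from 111442469 to 111455018, plus strand), a TNF-induced gene whose product acts in the formation of membrane protrusions, rose at 72 hours. It had the highest level per kb of exon of the 10 genes in all 3 groups, with means of 19.2, 22.4 and 40.9 normalized CPM per kb. By library its normalized CPM was 92.8, 91.0 and 103.5 in the spleen, 75.1, 118, 115 and 139 at 24 hours and 199, 240.1, 309, 125 and 147 at 72 hours. Every 72-hour library lay above every spleen library, while 72-hour replicate 4 lay within the 24-hour range. The log2 fold change was 1.09 at 72 hours (SE 0.28, adjusted p = 0.0221), 0.22 at 24 hours (SE 0.29, adjusted p = 0.677) and 0.87 between the liver groups (SE 0.26, adjusted p = 0.0517).

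At 72 hours Tnfaip2 was not called without spleen replicate 1 (adjusted p = 0.111) or 2 (0.126) and without 72-hour replicate 2 (0.0596) or 3 (0.0708). The difference between the liver groups, just outside the threshold, was called without spleen replicate 3 (0.0382) or 72-hour replicate 4 (0.0240) or 5 (0.0394). With all libraries it was called without a filter (0.0149), with filterByExpr (0.0450) and with the DESeq2 Wald test (0.0303). It was not called with DESeq2 size factors (0.0569), upper-quartile factors (0.0661), limma-voom (0.0596) or a fit of the 2 groups alone (0.0593). Because 314 of its 4984 exon bases are also exon of Gm40578 on the opposite strand, its counts may hold reads of both genes. Gm40578 has no row of its own among the genes used here.

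**Figure D3:**
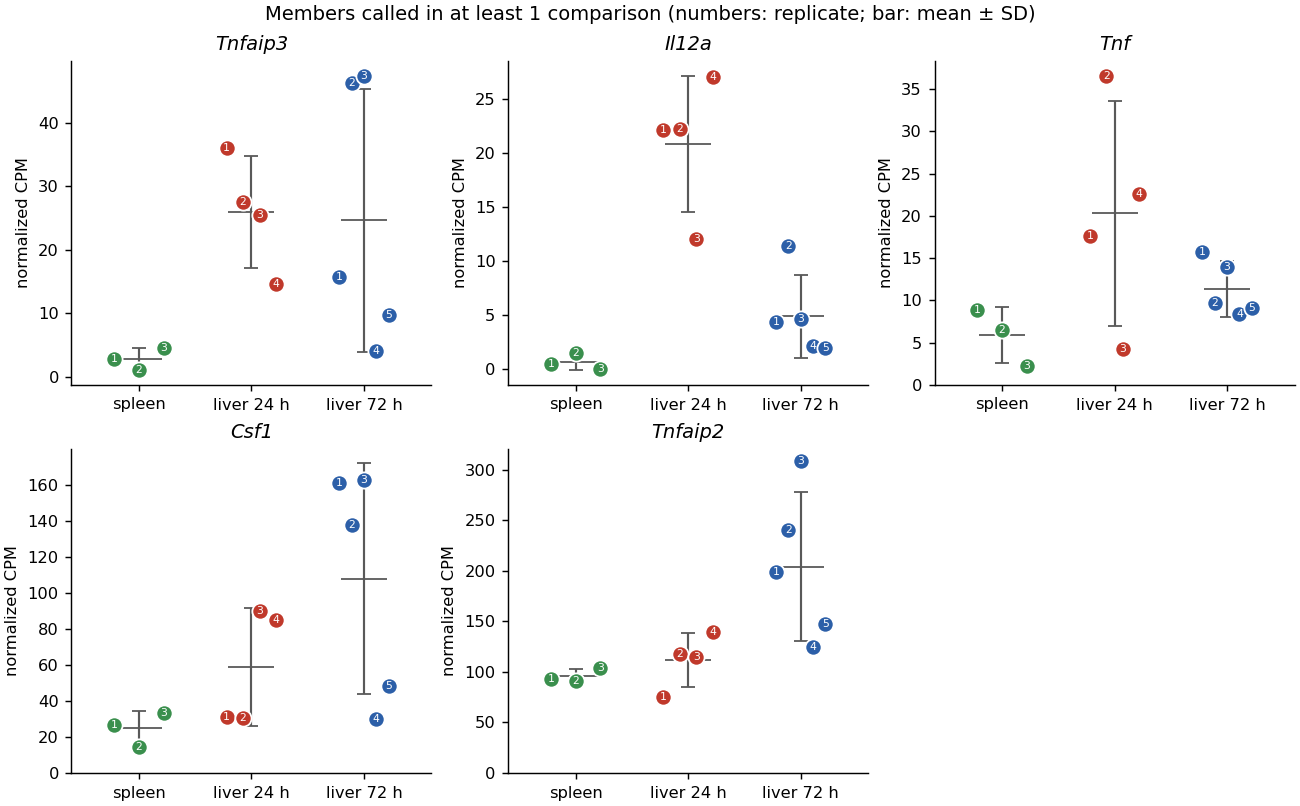
Normalized CPM (y axis, a separate scale in each panel) of the 5 genes called in at least 1 comparison, by group (x axis), with each library as a point carrying its replicate number and a bar for the mean ± SD. Il12a separates into 3 bands that do not overlap, and for Tnfaip3, Csf1 and Tnfaip2 the 72-hour replicates 4 and 5 lie lowest of the 72-hour libraries.

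Per kb of exon, the order of the genes differed between the groups. In the spleen, Tnfaip2 (19.2 ± 1.36 normalized CPM per kb, SD), Tnfrsf1a (15.2 ± 6.09) and Tnfsf14 (12.5 ± 1.04) led, and Tnfaip3 (0.386 ± 0.236) and Il12a (0.375 ± 0.435) were the lowest genes with any count. At 24 hours Tnfrsf1a, Tnfrsf1b, Tnf, Il12a, Tnfsf14 and Csf1 stood between 15.3 and 11.2 normalized CPM per kb, neighbours that did not differ beyond their SD. At 72 hours Csf1 (20.4 ± 12.1) came second after Tnfaip2 (40.9 ± 14.8), and Il12a (2.87 ± 2.26) stood near Il10 (2.16 ± 1.23).

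All 4 of the 72-hour calls depended on the libraries used. Without 72-hour replicates 2 and 3, the pair with few unaligned reads, 0 of the 9 genes were called by edgeR, by DESeq2 or by limma-voom, and 4 had an unadjusted p below 0.05 with each tool. Calls over all tested genes fell as well, by edgeR from 666 of 12488 to 287 of 12057. No such count is given here for the other 2 tools or for the unadjusted p. The log2 fold changes were then 2.07 for Il12a (adjusted p = 0.268), 1.81 for Tnfaip3 (0.122), 0.72 for Tnfaip2 (0.241) and 1.69 for Csf1 (0.109), each still above 0. Albumin (Alb), a hepatocyte gene, had 13 and 33 counts in these 2 libraries and 0 to 2 in the other 10. In the same 2 libraries Tnfaip3 was at 46.3 and 47.4 normalized CPM and Tnfaip2 at 240.1 and 309, above the 4.17 to 15.7 and 125 to 199 of the other 72-hour libraries. Csf1 was at 138 and 162 there and at 29.9 to 161 in the others. The 8 hepatocyte markers summed to 2.32 to 6.11 normalized CPM in the spleen, 14.9 to 19.8 at 24 hours and 3.24 to 25.1 at 72 hours, with 5 over 3 counts and Tat and Ttr at 0 throughout. Their part in the results was not tested. Without 72-hour replicates 4 and 5 instead, an alternative added after the data were seen, 5 of the 9 genes were called at 72 hours. The added gene was Tnfrsf1b (1.15, adjusted p = 0.0138), and 1173 of 12107 tested genes were called. Replicates 4 and 5 were the lowest 72-hour libraries for all 5 genes, so leaving them out raises these fold changes by construction.

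**Figure D4:**
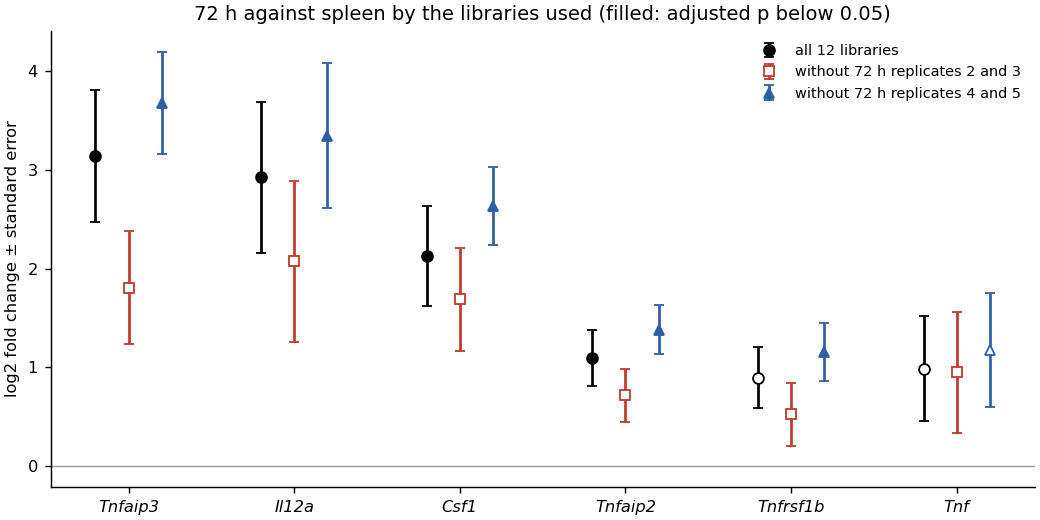
Log2 fold change at 72 hours against the spleen with its standard error (y axis) for 6 genes (x axis), from all 12 libraries, without 72-hour replicates 2 and 3, and without 72-hour replicates 4 and 5, filled at an adjusted p below 0.05. All values stay above 0, and no symbol is filled without replicates 2 and 3. Leaving out replicates 4 and 5 was added after the data were seen.

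The other genes of the same pathways were taken from 6 lists of 119 genes in all, of which 66 were tested. At 24 hours 7 were called, all higher (10.6%, beside 9.75% of all genes, 5.35% higher and 4.4% lower). At 72 hours 3 rose and 2 fell (7.58%, beside 5.33%), and between the liver groups 2 were called, both lower (3.03%, beside 4.49%). These shares lie near the background, with median log2 fold changes of -0.22, 0.09 and 0.28. Without 72-hour replicates 2 and 3 the counts called were 8, 1 and 0. The 72-hour count was also 1 without spleen replicate 1 or 2 or 72-hour replicate 2, 2 without 72-hour replicate 1 or 3, and 3 without 24-hour replicate 4. The count between the liver groups was 1 without spleen replicate 1 or 2, any of the 24-hour replicates 1, 2 and 4, or 72-hour replicate 2 or 3.

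In the TNF receptor signalling complex, the adaptors, kinases and ubiquitin enzymes that carry the receptor signal, 26 of 30 genes were tested. Tnip1, which encodes an A20-binding protein, rose at 24 hours, from 9.47 ± 3.52 normalized CPM in the spleen (SD, n = 3) to 38.5 ± 8.91 (SD, n = 4), a log2 fold change of 2.04 (adjusted p = 0.0138). Ikbkg, which encodes NEMO, the regulatory subunit of the IκB kinase, fell at 72 hours against the spleen (-1.14, adjusted p = 0.0442) and against 24 hours (-1.55, adjusted p = 0.00745). In 418 of its exon bases a gene of the opposite strand also has an exon. The other 24 tested genes were not called. The list's median log2 fold change was -0.33, 0.05 and 0.26 in the 3 comparisons.

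Of 26 further TNF receptor superfamily genes 13 were tested, and 3 rose at 24 hours. Tnfrsf14, which encodes HVEM, the receptor of LIGHT, went from 17.0 ± 6.201 normalized CPM (SD, n = 3) to 51.1 ± 21.9 (SD, n = 4), a log2 fold change of 1.57 (adjusted p = 0.0191). Tnfrsf23 and Tnfrsf26, neighbouring mouse genes of this list, rose by 2.22 (adjusted p = 0.00220) and 2.66 (adjusted p = 0.00889). The related gene Tnfrsf22 was not called (1.23, adjusted p = 0.0985). Tnfrsf23 and Tnfrsf26 overlap exons of the opposite strand by 164 and 107 bases, so their counts are uncertain. How alike the sequences of these genes are was not tested. Tnfrsf23 was also higher at 72 hours (1.70, adjusted p = 0.0159), and Tnfrsf21, which encodes death receptor DR6, was lower (-1.19, adjusted p = 0.0487). The list's median was -0.46, -0.29 and -0.25.

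Of 16 further TNF superfamily ligand genes 3 passed the filter and 11 had 0 counts in every library, and none was called (medians 0.37, 0.30 and -0.07). Of 6 other TNFAIP genes 3 were tested and none was called (medians -0.73, -0.44 and 0.64). With 3 tested genes in each, these medians stand for single genes.

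Of 26 other interleukin and growth factor genes 8 were tested and 13 had 0 counts in every library. Osm, which encodes oncostatin M, an IL-6 family cytokine, had the smallest adjusted p of the lists in both comparisons with the spleen, at 10.4 ± 2.50 normalized CPM in the spleen (SD, n = 3), 50.01 ± 16.8 at 24 hours (SD, n = 4) and 76.3 ± 19.6 at 72 hours (SD, n = 5). Its log2 fold change was 2.27 at 24 hours (adjusted p = 2.36e-04) and 2.88 at 72 hours (adjusted p = 1.44e-05). Il27, which encodes the p28 subunit of IL-27, fell by 0.73 on the log2 scale between 24 and 72 hours (adjusted p = 0.0399) and shares 103 exon bases with the opposite strand. The list's median was -0.25, 0.02 and 0.52.

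The receptors and signalling genes of IL-12, IL-6, IL-10 and CSF1 made up the last list, with 13 of 15 tested. Il10ra, the ligand-binding chain of the IL-10 receptor, rose at 24 hours (1.94, adjusted p = 0.0308) and at 72 hours (2.04, adjusted p = 0.0254), from 5 to 7 counts per spleen library to 10 to 18 and 4 to 41 in the liver groups. Socs3, a feedback inhibitor of IL-6 type signalling, rose at 24 hours (1.02, adjusted p = 0.0133) and stood just outside the threshold at 72 hours (0.81, adjusted p = 0.0601). The list's median was 0.45, 0.56 and 0.22.

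**Figure D5:**
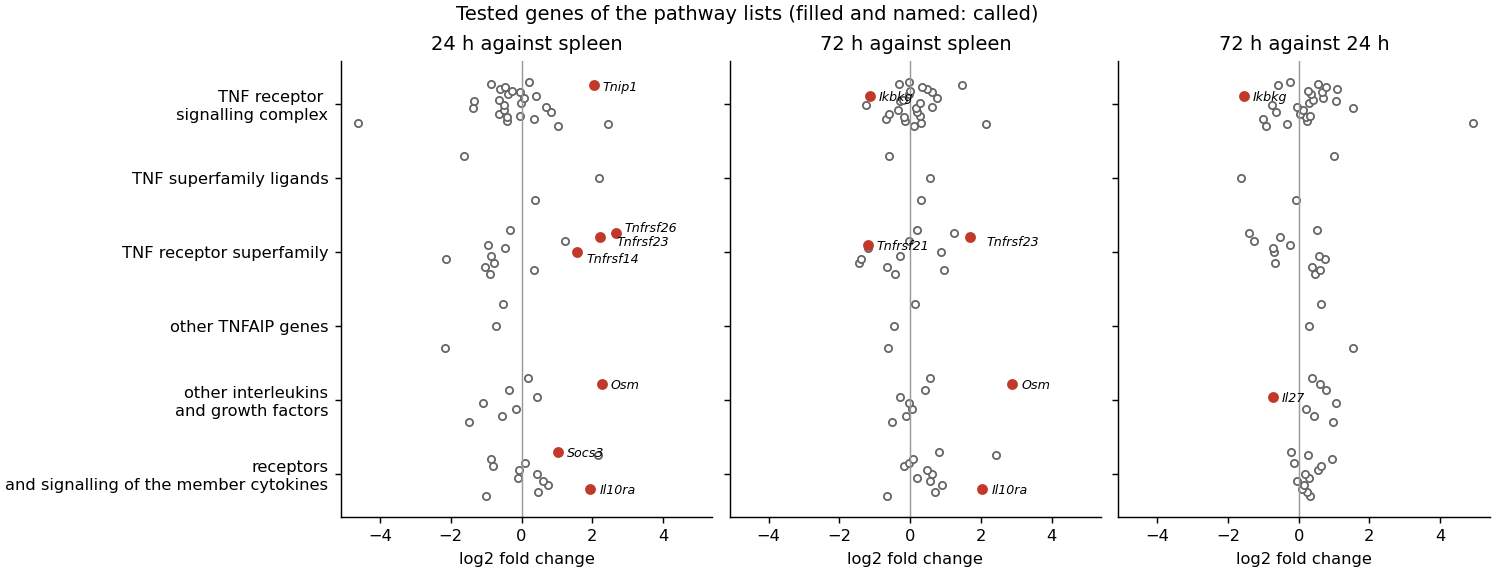
Log2 fold change (x axis) of the 66 tested genes of the 6 pathway lists (y axis) in the 3 comparisons, with called genes filled and named. Most genes scatter on both sides of 0, and Osm stands to the right in both comparisons with the spleen.

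The tested genes whose pattern over the 12 libraries was most like that of a called gene were found by Pearson correlation of log2 CPM, as a description that takes in group differences and library quality alike. For Tnfaip3 they were Tnfrsf1b (r = 0.968) and Cd14 (0.964), the former another gene followed here. For Tnfaip2 they were Il1b (0.945) and H2-Eb1 (0.940), and for Csf1 they were Gm37691 (0.951) and Cd274 (0.942). For Il12a they were the unnamed genes Gm14963 (0.979) and Gm28033 (0.962), and for Tnf, with the loosest likeness, Gm26522 (0.860) and Htr2b (0.857).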

How the data were processed

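Reads were aligned to GRCm38 with STAR 2.7.9a, counted per gene with HTSeq-count and deposited by the authors as raw counts of 12 libraries, without normalization. The strand option is not given in the sources used here. Identifiers were matched, without version, to GENCODE M21 (48349 of 48709 genes), and 5 summary rows were left out. Genes above 1 CPM in at least 3 libraries were kept (12488). TMM-scaled counts were tested by quasi-likelihood in edgeR 4.0.16 (R 4.3.3), with Benjamini-Hochberg adjustment over all tested genes, after tests on simulated data. Normalized CPM is the count divided by the TMM-scaled library size. Kruskal-Wallis tests were exact over 27720 assignments of the libraries. The receptor ratio used a pseudocount of 0.5. Log2 CPM for correlations used a prior count of 2.

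The genes, pathway lists, marker lists and tests were chosen with earlier results of these data known. The text names the 10 genes, every called gene of the pathway lists and the 2 most correlated genes of each called gene. Alternatives were DESeq2 1.42.0 (size factors, Wald test), upper-quartile scaling, no filter, filterByExpr, limma-voom (limma 3.58.1), fits of 2 groups, a replicate block, other fold limits, genes without opposite-strand overlap and left-out libraries. The sum of counts on genes, 1267089 to 3017403 per library, limits genes of few counts. Protein sequences and the study's other assays were not used here.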

Additional observations from a re-analysis of the deposited data

Results flagged for a closer look

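Each group of 4 or 5 libraries was checked, for the 9 tested genes, the receptor ratio and the ambiguous reads, for a library far from the others by Dixon's test at 95%, and 2 of 22 groups stood out, where chance gives about 1 in 20. For Il12a at 72 hours the gap between replicate 2 (11.4 normalized CPM) and the next library (4.64) was 0.715 of the group's range. For the share of uniquely aligned reads that were ambiguous, the gap between 24-hour replicate 4 (0.227%) and the next 24-hour library was 0.978 of the range. Without that library, Tnf was no longer called at 24 hours (adjusted p = 0.0804) and the difference in Il12a between the liver groups was -1.86 (adjusted p = 0.0724).

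The effects at 24 and 72 hours, which share the spleen libraries, differed by the test of the difference itself for Il12a (log2 difference -2.00, edgeR adjusted p = 0.0257), lower in 5 of 5 72-hour libraries than in any 24-hour library.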

How the results depend on the processing

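Of the log2 fold changes of the 9 genes, 276 values under alternatives other than leaving out 1 library kept their direction and side of the threshold, 21 crossed into a call, 15 out of one and 6 changed sign. None of the sign changes was of a called value: Tnfsf14 at 24 hours (0.0274 with upper-quartile factors, 0.0693 among genes without opposite-strand overlap), Tnfrsf1a at 24 hours (-0.00651 with filterByExpr), Tnfrsf1b and Tnfaip3 between the liver groups (0.15 and 0.48 without 72-hour replicates 4 and 5) and Il10 at 24 hours (-0.18 without 24-hour replicate 4 and 72-hour replicates 2 and 3). The last 2 ways of leaving out libraries were added after the data were seen. The causes were not tested.

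The number of the 9 genes called between the liver groups (1) was 3 without a filter and 2 with filterByExpr or the DESeq2 Wald test, where 951 of all genes and 5 pathway genes were called. Upper-quartile scaling split the calls between the liver groups into 157 higher and 457 lower, in place of 206 and 355. Genes without opposite-strand overlap are fewer (7485), and 552, 360 and 143 of them were called in the 3 comparisons. Among them were 3 pathway genes at 72 hours and 1 between the liver groups. At a fold limit of 1, 5 pathway genes were called at 72 hours and 1 between the liver groups. Without 72-hour replicates 2 and 3, 0 of the 9 genes, 287 of all genes and 1 pathway gene were called at 72 hours, and 197 and 0 between the liver groups. With 24-hour replicate 4 also left out these were 0, 276 and 1, then 114 and 0, with 0 of the 9 genes between the liver groups. Without 72-hour replicates 4 and 5, 5 of the 9 genes were called at 24 hours, 1173 of all genes and 11 pathway genes at 72 hours, and 848 of all genes and 2 of the 9 (Tnfaip2 and Csf1, without Il12a) between the liver groups. By unscaled CPM, 2 genes passed the exact Kruskal-Wallis test, Tnfaip2 being the second (adjusted p = 0.0253).

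Leaving out 1 library at a time, 2 to 4, 1 to 5 and 0 to 2 of the 9 genes were called in the 3 comparisons, 575 to 1320, 314 to 835 and 182 to 796 of all genes, and 5 to 8, 1 to 7 and 1 to 3 pathway genes. Uncalled values that changed sign ranged from -0.20 to 0.38 (Tnfrsf1a), -0.17 to 0.0719 (Tnfsf14) and -0.19 to 1.82 (Il10) at 24 hours, and from -0.0905 to 1.07 (Il10), -0.31 to 0.0463 (Tnfrsf1b) and -0.40 to 0.22 (Tnfaip3) between the liver groups. The receptor ratio ranged from 0.65 to 1.38, 0.20 to 0.93 and -0.58 to -0.36, and passed the test in none.

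Replicate numbers are shared between groups, but nothing in the labels pairs the animals. Same-numbered libraries deviated together weakly (correlations from -0.12 to 0.13, 1 of 10 pairs above 0.1), and 2 of 12 libraries correlated best with their own number. With the replicate number as a block, 5, 5 and 2 of the 9 genes, 1302, 874 and 599 of all genes and 9 pathway genes at 72 hours were called. The genes gained were Tnfrsf1b at 24 hours (adjusted p = 0.0242) and 72 hours (0.0478), Csf1 at 24 hours (0.0434) and Tnfaip2 between the liver groups (0.0320). Low counts limit Il10, Il6 and the spleen level of Il12a.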

Other observations

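The remaining marker lists were read in the same libraries, with no test. The 10 markers of immature neutrophils summed to 2617 to 4849 normalized CPM in the spleen, 964 to 1305 at 24 hours and 1002 to 1540 at 72 hours, with Elane at 0 in every library. The 10 neutrophil markers summed to 1933 to 7385, 1221 to 2879 and 2147 to 2945. S100a9, an abundant neutrophil gene, had 8486 and 10950 counts in spleen replicates 1 and 2 and 1053 in spleen replicate 3. The 6 B cell markers summed to 46.8 to 54.0, 26.9 to 61.2 and 25.7 to 46.5 and the 6 endothelial markers to 28.8 to 72.7, 32.8 to 59.8 and 43.0 to 66.7. The 8 markers of T and NK cells stayed at or below 9.19 normalized CPM in sum, with Cd3e, Cd4 and Klrb1c at 0 throughout, and the 6 erythroid markers at or below 5.84.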
